A study of Mus musculus with 4 samples.

Results

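The genes described here are 10 regulators of the G1 phase of the cell cycle in mouse lung tumour preparations. They are the D-type cyclins Ccnd1, Ccnd2 and Ccnd3, the E-type cyclins Ccne1 and Ccne2, the CIP/KIP inhibitors Cdkn1a, Cdkn1b and Cdkn1c, and the INK4 inhibitors Cdkn2a and Cdkn2b. They were chosen by gene symbol, and all 10 were found among the 21445 rows of the deposited table. Lung tumours were taken 10 weeks after intranasal Ad-Cre, an adenovirus that delivers Cre recombinase to the airway, and cells depleted of CD45-positive leukocytes with magnetic beads were sequenced. The KL25 group (n = 2 mice) carried, among its alleles, Lkb1fl/fl and Usp25-/-, and the KL group (n = 2 mice) carried Lkb1fl/fl without Usp25-/-. Both groups therefore share the floxed alleles of Lkb1 (Stk11, a tumour suppressor kinase). Usp25, a deubiquitinase, is written as -/- and not as floxed, so the label does not tie its loss to Cre. The sources used here do not give the promoter that drives Cre or the age of the mice. The comparison of KL25 with KL addressed what loss of Usp25 changed in these tumours.

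D-type cyclins are induced by growth signals, and they activate CDK4 and CDK6, which begin to phosphorylate the retinoblastoma protein RB. Cyclin E then activates CDK2, which completes RB phosphorylation, frees the E2F transcription factors and starts S phase. INK4 proteins block CDK4 and CDK6, and CIP/KIP proteins bind cyclin-CDK complexes more broadly, CDK2 complexes above all. In mouse tumours, the products of Cdkn2a and Cdkn1a are known as parts of the response that restrains cells carrying an active oncogene.

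KL replicate 1 differed most from the rest. In log2(FPKM + 1) over 12476 genes it correlated with the other libraries at 0.874 to 0.885, whereas those correlated among themselves at 0.933 to 0.967. The 9 neutrophil markers found in the table (of 10 listed) summed to 2127 and 1257 FPKM in KL25 replicates 1 and 2, and to 41365 and 747 FPKM in KL replicates 1 and 2. Usp25 itself had 2.65 and 1.71 FPKM in KL25 replicates 1 and 2, against 38.5 and 16.6 FPKM in KL replicates 1 and 2. Stk11 was at 16.9 and 20.7 FPKM in KL25 and at 19.5 and 23.9 FPKM in KL. A level summed over a gene does not show whether the floxed part of Stk11 was removed. Ptprc, which encodes CD45, was at 51.0 and 43.3 FPKM in KL25 and at 123 and 46.4 FPKM in KL, so leukocyte RNA was present in all libraries in spite of the depletion. In such bulk samples, fewer cells of a type and less RNA per cell cannot be told apart. Relative depth, as the size factor of each library, was 0.853 and 0.823 in KL25 and 1.30 and 1.09 in KL.

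Of the 10 genes, Ccnd1 was the one whose KL25 libraries both lay outside the range of the KL libraries, and the other 9 overlapped. Among all 12476 genes tested, 19.1% had both KL25 values above both KL values and 15.0% had both below. Separated groups in either direction were thus seen in 1 of 10 members and in 34.1% of all genes. All 10 passed the filter on low values, which asked for a group mean of 1 FPKM or more in KL25 or in KL. None of the 10 passed limma at an adjusted p of 0.05, nor at an unadjusted p of 0.05. In the same limma fit 0 of 12476 genes passed (0% higher and 0% lower), while without adjustment 2.16% passed as higher and 1.07% as lower. Usp25 itself, with a KL mean 12.6-fold its KL25 mean, had an adjusted p of 0.942 in limma. Not passing this test is therefore not evidence that a gene was unchanged. The authors' deposited table has an adjusted p below 0.05 for 18 genes, or 0.122% of those given one, with no member among them. Usp25 is among these 18, at an adjusted p of 0.0170. With 2 libraries in each group a two-sided exact permutation test cannot go below p = 0.333. The log2 difference was positive for 6 members and negative for 4, against a positive difference in 53.1% of all genes tested, and its median was 0.14 over the members and 0.03 over all genes.

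**Figure D1:**
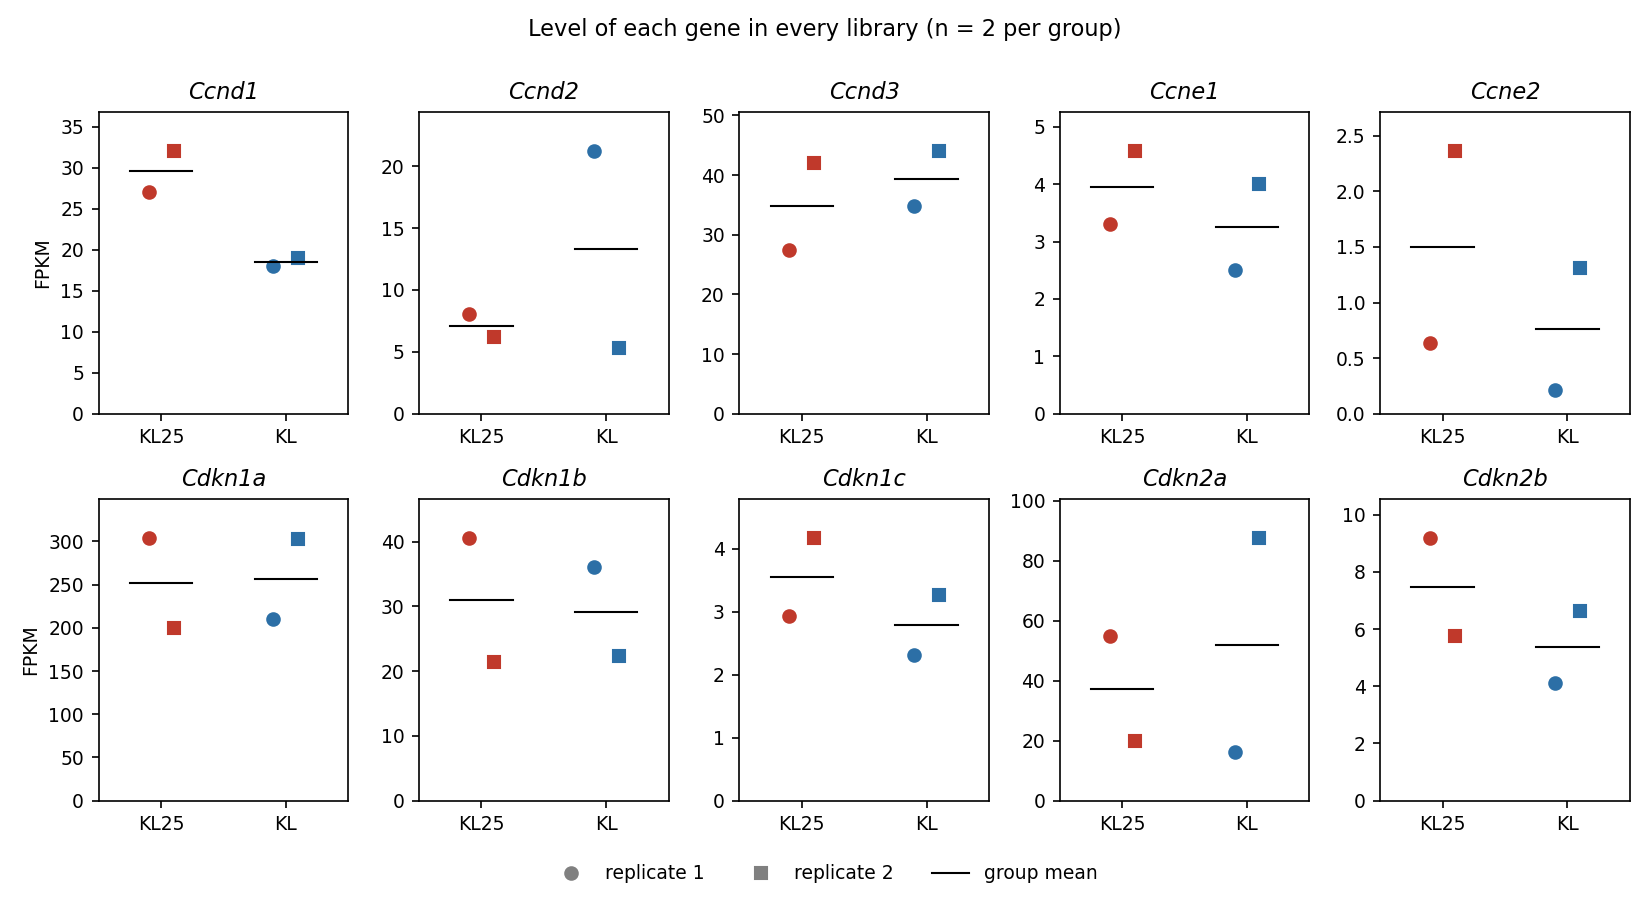
Level of each of the 10 genes in FPKM (vertical axes from 0, on a scale of their own in each panel) in the KL25 and KL libraries, with circles for replicate 1, squares for replicate 2 and a line at each group mean. Ccnd1 is at 27.1 and 32.1 FPKM in KL25 and at 18.0 and 19.0 FPKM in KL, while in the other 9 panels the groups overlap.

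The 3 D-type cyclins did not share one order of libraries. Ccnd1, which encodes cyclin D1, the main D-type cyclin of many epithelia and a partner of CDK4 and CDK6, had 27.1 and 32.1 FPKM in KL25 replicates 1 and 2. In KL replicates 1 and 2 it was at 18.0 and 19.0 FPKM. The lowest KL25 library was thus above the highest KL library, and the KL25 mean of 29.6 ± 3.52 FPKM was 1.60-fold the KL mean of 18.5 ± 0.677 FPKM (SD, n = 2 libraries in each). On the log2(FPKM + 1) scale the difference was 0.65 (SE 0.28, 95% interval -0.07 to 1.36). It did not pass in limma, with an adjusted p of 0.942. The authors' deposited table gives Ccnd1 a log2 fold change of 0.64 (SE 0.27), an unadjusted p of 0.0161 and an adjusted p of 0.855. The authors' deposited table holds 1.62% of genes as higher and 2.46% as lower when p is left unadjusted, and Ccnd1 is the 1 member of the 10 among them. Without KL replicate 1 the limma difference was 0.61, and over the 4 fits that each left out a library it ran between 0.53 and 0.76.

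Markers of epithelial cells had differences of the same sign as Ccnd1. All 10 epithelial markers had a positive log2 difference, against 53.1% of all genes tested. In limma 0 of 10 passed an adjusted p of 0.05. At an unadjusted p of 0.05 in limma 2 of 10 passed as higher, against 2.16% of all genes. The groups were apart with KL25 higher for 8 of 10, against 19.1% of all genes. None of these markers was at 0 in any library. They summed to 4284 and 1603 FPKM in KL25 replicates 1 and 2, set against 1123 and 938 FPKM in KL. The highest epithelial sum was in KL25 replicate 1 and the highest Ccnd1 value in KL25 replicate 2. The ratio of Ccnd1 to the epithelial adhesion gene Epcam was 0.132 and 0.459 in KL25 and 0.311 and 0.530 in KL, and these ranges overlapped. The ratio of Ccnd1 to Ptprc was 0.531 and 0.741 in KL25, against 0.147 and 0.408 in KL, and these did not. All 10 leukocyte markers had a negative log2 difference, and they summed to 3950 and 3555 FPKM in KL25 and to 9999 and 4436 FPKM in KL. The groups were apart with KL25 lower for 4 of 10, against 15.0% of all genes, and the rest overlapped. Among those that overlapped, Cd53 was at 207 and 183 FPKM in KL25 and at 591 and 195 FPKM in KL, its high value in KL replicate 1. Tyrobp was at 1255 and 1038 FPKM in KL25 and at 1032 and 1656 FPKM in KL, its high value in KL replicate 2. Macrophage markers summed to 2807 and 1780 FPKM in KL25 and to 4535 and 2533 FPKM in KL. In these sums Cd14 alone was at 1493 and 637 FPKM in KL25 and at 3392 and 673 FPKM in KL. The median macrophage marker was at 135 and 76.1 FPKM in KL25 and at 136 and 127 FPKM in KL. Of the 10 macrophage markers 3 had a positive log2 difference and 7 a negative one. Lymphocyte markers summed to 11.1 and 37.1 FPKM in KL25 and to 12.1 and 17.8 FPKM in KL. Fibroblast and smooth muscle markers summed to 58.2 and 138 FPKM in KL25 and to 61.4 and 69.6 FPKM in KL. Of 10 alveolar type 2 markers 9 had a positive log2 difference. The groups were apart with KL25 higher for 40.0% of them, against 19.1% of all genes. The median alveolar type 2 marker was at 58.2 and 99.996 FPKM in KL25 and at 68.1 and 92.7 FPKM in KL, and for this median the groups overlapped. The part of any of these cell types in the Ccnd1 values was not tested.

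Ccnd2, which encodes cyclin D2, a D-type cyclin abundant in lymphocytes and other blood cells, was at 8.02 and 6.21 FPKM in KL25 and at 21.2 and 5.32 FPKM in KL. The KL25 libraries lay between the KL libraries, and the high value was that of KL replicate 1, the library with the neutrophil signal. The difference was -0.55 (SE 0.63, limma adjusted p = 0.942), which became 0.35 when KL replicate 1 was left out and -1.46 when KL replicate 2 was. The part of neutrophils or other leukocytes in the Ccnd2 values was not tested. Ccnd3, which encodes cyclin D3, was at 27.4 and 42.1 FPKM in KL25 and at 34.7 and 44.1 FPKM in KL. Replicate 1 was the lower library of both groups, and the difference of -0.20 (SE 0.35, limma adjusted p = 0.953) was smaller than the spread within KL25. The libraries stood in the same order for the summed level of 10 endothelial markers, at 111 and 223 FPKM in KL25 and at 132 and 335 FPKM in KL. This order was not particular to endothelial markers, since Stk11 had it too, and not every single endothelial marker followed it. The part of endothelial cells in the Ccnd3 values was not tested.

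As a share of the summed FPKM of the 3 D-type cyclins, Ccnd1 made up 43.3% and 39.9% in KL25, against 24.3% and 27.7% in KL. The groups did not overlap, and the difference in mean share stayed between 13.9 and 17.3 percentage points when any 1 library was left out. With groups apart, the sign of this difference was fixed in advance. Ccnd3 made up 43.8% and 52.4% in KL25 and 47.0% and 64.5% in KL. Ccnd2 made up 12.8% and 7.73% in KL25 and 28.7% and 7.78% in KL. In FPKM as deposited, the ratio of Ccnd1 to Ccnd3 was 0.989 and 0.762 in KL25 against 0.518 and 0.430 in KL. The summed D-type level overlapped, at 62.5 and 80.4 FPKM in KL25 and at 74.0 and 68.3 FPKM in KL. Shares were described and not tested. These shares and ratios rest on the FPKM of Ccnd3, which was 3.16 times what its deposited count and annotated exon length would give for a typical gene. With the FPKM of each gene scaled to its count per exon length, an alternative chosen after seeing the data, Ccnd1 made up 66.7% and 66.7% of the D-type sum in KL25, against 41.2% and 54.5% in KL. The scaled ratio of Ccnd1 to Ccnd3 was 3.71 and 2.86 in KL25, against 1.95 and 1.62 in KL. Which of Ccnd1 and Ccnd3 was the more abundant thus turned with the scale. In the share of Ccnd1 the groups did not overlap on either scale. The scaled ratio is the ratio as deposited multiplied by the same constant in every library. Its separation of the groups was therefore fixed in advance and adds nothing to that of the deposited ratio.

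**Figure D2:**
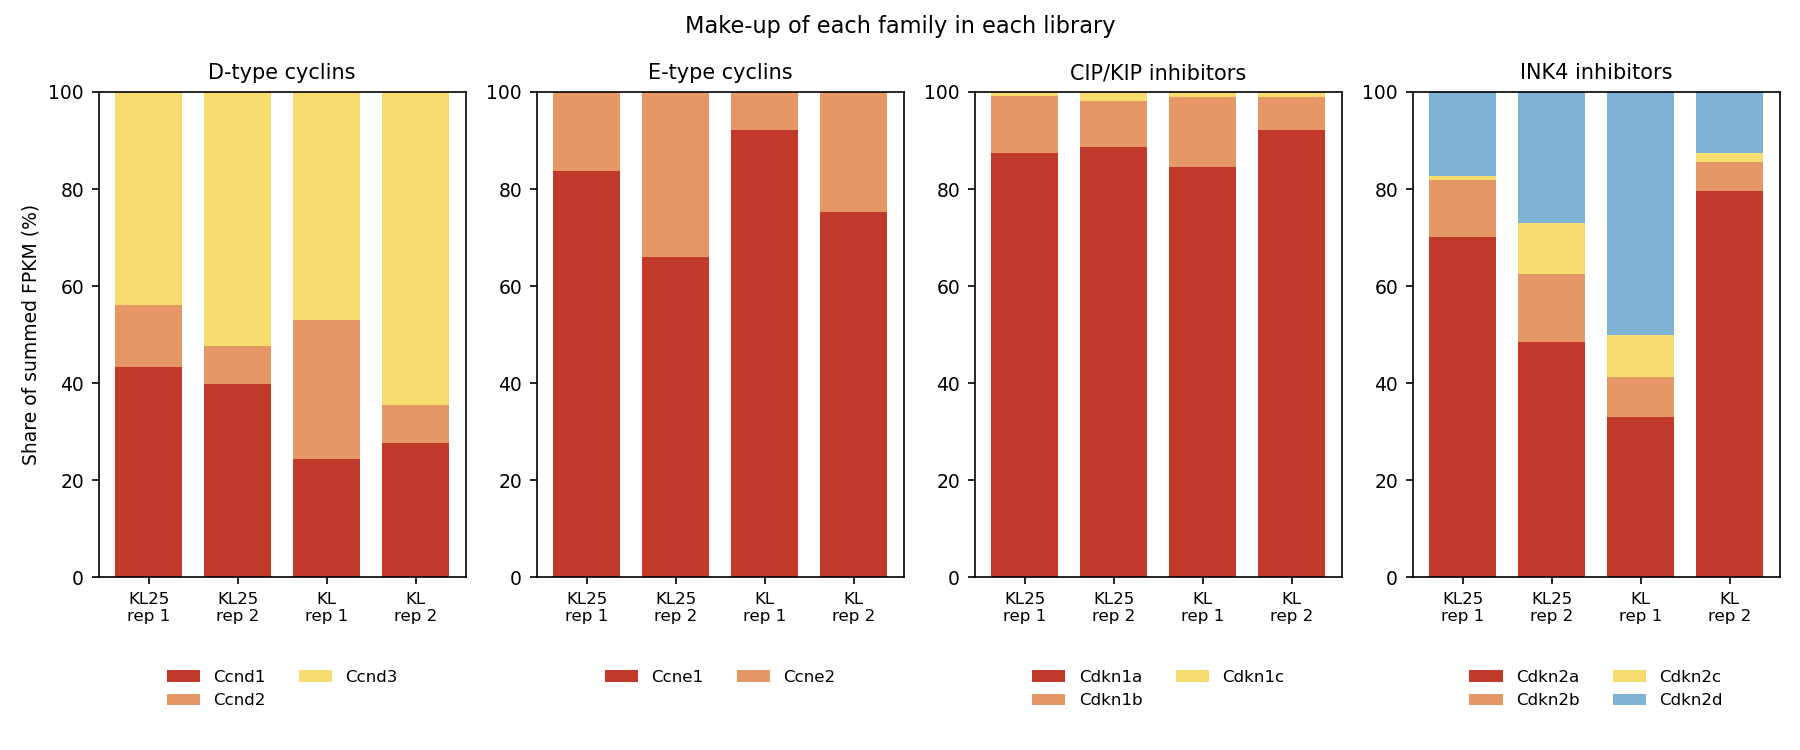
Share (%) of each gene in the summed FPKM of its family, one bar per library, with the KL25 libraries left of the KL libraries. Ccnd1 makes up 43.3% and 39.9% of D-type cyclin FPKM in KL25, against 24.3% and 27.7% in KL, and Cdkn2a ranges from 33.0% to 79.6% of INK4 FPKM over the 4 libraries.

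Relatives of this kind can exchange reads where their sequences match. The longest run of bases shared by the coding sequences of each pair within a family was therefore taken from GENCODE transcripts. The D-type cyclin and INK4 pairs with the longest runs are shown, because the D-type shares above and the INK4 values below rest on telling these genes apart.
Ccnd1 and Ccnd2: ttcaagtgcgtgcagaagga
Ccnd1 and Ccnd3: gcctgccaggaacagat
Cdkn2a and Cdkn2b: cgggaaggcttcctggacacgct
The cyclin genes lie on chromosomes 7 (Ccnd1), 6 (Ccnd2) and 17 (Ccnd3), and the INK4 genes on chromosome 4. The runs span 20, 17 and 23 bases. No pair within the D-type, E-type, CIP/KIP or INK4 members shared a longer coding run than the 23 bases of Cdkn2a and Cdkn2b. D-type cyclins were not compared with E-type cyclins. No read length is given in the sources used here. On the GRCm38 annotation Ccnd1 (chromosome 7, 144929931 to 144939925, minus strand) overlaps LTO1 on the plus strand, listed as Oraov1 in the deposited table. Oraov1 was at 4.40 and 6.25 FPKM in KL25 and at 4.97 and 4.91 FPKM in KL. Ccnd2, Ccnd3, Ccne2, Cdkn1a and Cdkn1c also overlap genes on the opposite strand, Ccnd3 the gene Bysl and Ccne2 the gene Ints8. Ints8 was at 5.67 and 6.49 FPKM in KL25 and at 6.30 and 3.61 FPKM in KL, above Ccne2 in every library. The library kit keeps strand, but whether counting used strand is not given here.

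The E-type cyclins were low and followed one library order. Ccne1, which encodes cyclin E1, the activator of CDK2 at the G1/S boundary, was at 3.31 and 4.58 FPKM in KL25 and at 2.50 and 4.002 FPKM in KL. Ccne2, which encodes cyclin E2, was at 0.639 and 2.36 FPKM in KL25 and at 0.214 and 1.31 FPKM in KL. For both genes KL25 replicate 2 was highest, then KL replicate 2, then KL25 replicate 1, with KL replicate 1 lowest, so the groups interleaved. The difference was 0.23 (SE 0.34) for Ccne1 and 0.49 (SE 0.56) for Ccne2, with limma adjusted p = 0.946 and 0.942. Without KL replicate 1 these differences were -0.029 and 0.024, and without KL25 replicate 2 that of Ccne1 was 0.041. Ccne2 had a mean normalized count of 30.1, the lowest of the 10 genes, and spread 11.1-fold between its highest and lowest library. Its share of E-type FPKM was 16.2% and 34.0% in KL25 and 7.87% and 24.7% in KL.

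Among the CIP/KIP inhibitors the groups had nearly the same mean for Cdkn1a and Cdkn1b. Cdkn1a, which encodes p21, a p53 target that inhibits CDK2 complexes, was at 304 and 200 FPKM in KL25 and at 210 and 303 FPKM in KL. Each group thus had 1 high and 1 low library, and the groups overlapped. The difference was -0.03 (SE 0.40, 95% interval -1.06 to 0.99, limma adjusted p = 0.995). Cdkn1b, which encodes p27, an inhibitor that accumulates in resting cells, was at 40.6 and 21.4 FPKM in KL25 and at 36.0 and 22.3 FPKM in KL. Replicate 1 exceeded replicate 2 by 1.90-fold in KL25 and 1.61-fold in KL, and the difference between groups was 0.05 (SE 0.44, limma adjusted p = 0.992). Replicate numbers are not described as pairs or batches in the labels. Cdkn1c, which encodes p57, an imprinted inhibitor active in development, was at 2.93 and 4.17 FPKM in KL25 and at 2.31 and 3.27 FPKM in KL. Its libraries stood in the same order as those of the E-type cyclins, with a difference of 0.26 (SE 0.33, limma adjusted p = 0.944) that became 0.08 when KL replicate 1 was left out and 0.064 when KL25 replicate 2 was.

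Cdkn1a made up 87.5% and 88.7% of summed CIP/KIP FPKM in KL25, against 84.5% and 92.2% in KL, and it was the highest of the 10 genes in every library. Its rank above the others holds less firmly than its FPKM implies. The deposited mean normalized count of Cdkn1a, set against its FPKM and its annotated exon length of 3553 bases, was 0.235 of that of the median gene, at the percentile 3.14 of 11557 genes. Ccnd3 was at 0.316, and the other 8 members were between 0.785 and 1.49. The FPKM of Cdkn1a was therefore 4.26 times, and that of Ccnd3 3.16 times, what the counts of a typical gene of that exon length would give. Levels of Cdkn1a and Ccnd3 against other genes carry this uncertainty. Scaled in the same way as Ccnd1 above, Cdkn1a made up 66.5% and 67.5% of the CIP/KIP sum in KL25, against 61.0% and 76.3% in KL. The difference between groups was close to 0 on both scales, with a log2 fold change of -0.05 (SE 0.56) for Cdkn1a in the authors' deposited table.

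The INK4 genes Cdkn2a and Cdkn2b are neighbours on chromosome 4, with 11645 bases between them (GRCm38). The symbol Cdkn2a covers a pair of proteins read in different frames: p16INK4a, which blocks CDK4 and CDK6, and p19ARF, which stabilises p53. Each has a first exon and a start of its own, 12461 bases apart, and they share the 320 coding bases that follow. The coding bases that precede the shared stretch in each transcript are shown because the deposited values are given per gene and do not separate the products. They are from GENCODE, minus strand of chromosome 4, with the start codon in capitals.
Cdkn2a-202 (the upstream start, p19ARF): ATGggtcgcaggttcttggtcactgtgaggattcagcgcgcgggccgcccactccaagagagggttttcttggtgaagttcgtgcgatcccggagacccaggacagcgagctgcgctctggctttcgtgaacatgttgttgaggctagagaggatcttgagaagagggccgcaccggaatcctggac
Cdkn2a-201 (the downstream start, p16INK4a): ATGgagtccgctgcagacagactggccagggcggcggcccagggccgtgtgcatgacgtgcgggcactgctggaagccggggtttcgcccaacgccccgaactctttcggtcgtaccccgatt
These stretches span 187 and 123 bases, and the shared bases begin in different codon positions in the 2 transcripts.

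The 2 starts of Cdkn2a also have separate promoters, which bear on the same limit, since a value per gene adds up their output. The windows from RefSeq (GRCm38.p6, minus strand) run from 250 bases before to 50 bases after each start, and 6 of the 10 members matched an entry. Capitals mark matches to TTTNNCGC, an E2F-type motif searched on both strands, with overlap between matches allowed.
Cdkn2a upstream start, chr4:89294570-89294869: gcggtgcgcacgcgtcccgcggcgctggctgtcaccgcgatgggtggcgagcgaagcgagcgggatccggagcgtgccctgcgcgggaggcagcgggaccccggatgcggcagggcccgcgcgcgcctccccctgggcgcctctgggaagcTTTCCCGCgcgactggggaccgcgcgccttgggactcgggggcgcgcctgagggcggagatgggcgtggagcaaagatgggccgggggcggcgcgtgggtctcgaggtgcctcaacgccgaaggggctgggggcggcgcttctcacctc
Cdkn2a downstream start, chr4:89282143-89282442: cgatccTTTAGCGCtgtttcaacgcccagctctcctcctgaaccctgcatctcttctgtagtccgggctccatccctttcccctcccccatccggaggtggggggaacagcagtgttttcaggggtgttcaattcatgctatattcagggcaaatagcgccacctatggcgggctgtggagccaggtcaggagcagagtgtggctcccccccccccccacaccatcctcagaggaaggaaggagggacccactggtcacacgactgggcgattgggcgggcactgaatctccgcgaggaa
Cdkn2b start, chr4:89310983-89311282: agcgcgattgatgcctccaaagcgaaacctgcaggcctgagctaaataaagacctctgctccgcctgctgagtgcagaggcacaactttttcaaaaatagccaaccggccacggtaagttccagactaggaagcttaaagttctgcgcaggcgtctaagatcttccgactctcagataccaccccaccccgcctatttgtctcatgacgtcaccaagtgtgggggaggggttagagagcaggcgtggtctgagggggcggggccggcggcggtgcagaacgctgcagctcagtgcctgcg
Each Cdkn2a window held 1 match, and the window of Cdkn2b held 0, as did those of Ccnd3, Ccne1, Cdkn1a and Cdkn1b. Of 32851 promoter windows of the same length 5.17% held the motif. A match is a description of the letters and not of binding.

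Of the 5 CDK inhibitors among the members, Cdkn2a spread most between libraries. It was at 54.9 and 19.9 FPKM in KL25 and at 16.3 and 87.6 FPKM in KL. The highest and the lowest library were thus both KL libraries, 5.39-fold apart, and the KL25 libraries lay between them. The KL25 mean was 37.4 ± 24.8 FPKM, against a KL mean of 52.0 ± 50.5 FPKM (SD, n = 2 libraries in each). The difference of -0.19 (SE 0.90, 95% interval -2.47 to 2.08) did not pass in limma (adjusted p = 0.981). Leaving out KL replicate 1 made it -1.38, leaving out KL replicate 2 made it 0.99 and leaving out KL25 replicate 2 made it 0.52, so its sign depended on which libraries were kept. Cdkn2b, which encodes p15INK4b, an inhibitor induced by TGF-beta in epithelial cells, was at 9.18 and 5.75 FPKM in KL25 and at 4.10 and 6.62 FPKM in KL. Its difference was 0.41 (SE 0.37, limma adjusted p = 0.942), which became 0.12 when KL replicate 1 was left out and 0.11 when KL25 replicate 1 was. Cdkn2a was 5.98 and 3.46 times the Cdkn2b level in KL25 and 3.96 and 13.2 times in KL. Cdkn1a, Cdkn2a and Cdkn2b shared the same pair of highest libraries, KL25 replicate 1 and KL replicate 2, one from each group.

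The remaining INK4 genes both had a negative difference. Cdkn2d, which encodes p19INK4d, was at 13.5 and 11.1 FPKM in KL25 and at 24.7 and 13.9 FPKM in KL, with groups apart and a difference of -0.56 (limma adjusted p = 0.942). Cdkn2c, which encodes p18INK4c, was at 0.645 and 4.29 FPKM in KL25 and at 4.19 and 2.02 FPKM in KL, and its groups overlapped. Of the summed FPKM of the 4 INK4 genes, Cdkn2a made up 70.2% and 48.5% in KL25, against 33.0% and 79.6% in KL. In KL replicate 1 the largest part, 50.1%, was Cdkn2d.

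**Figure D3:**
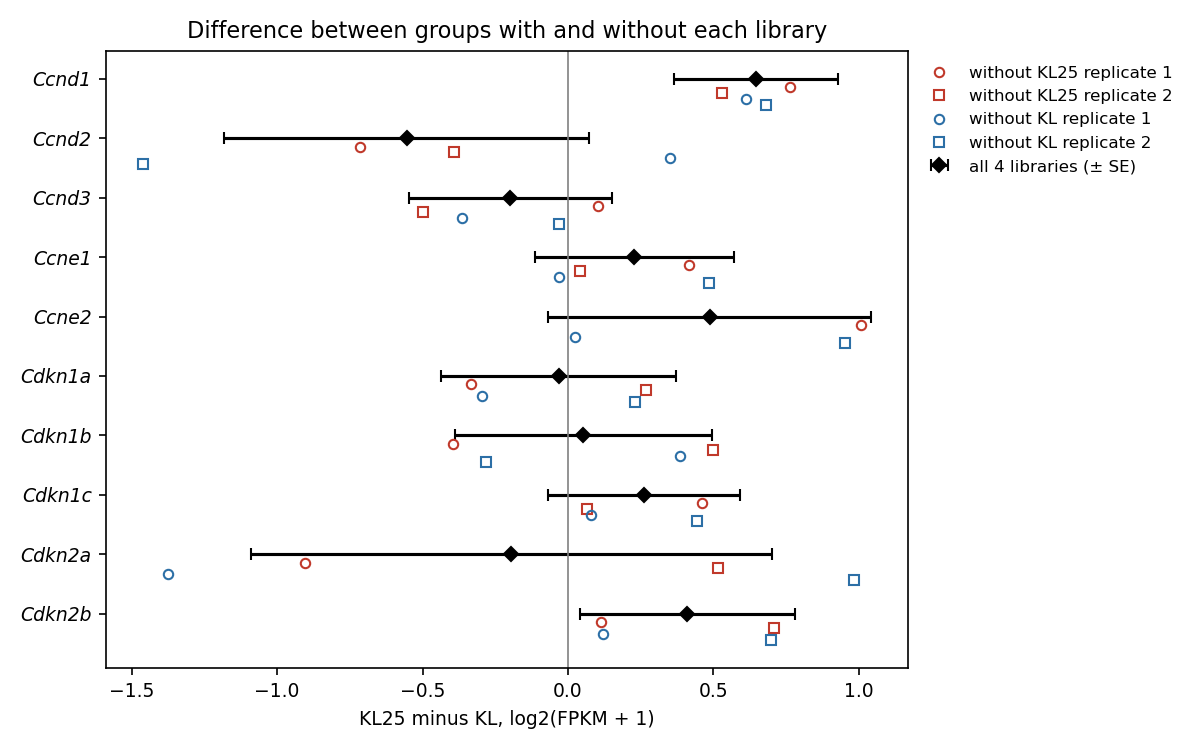
Difference between KL25 and KL in log2(FPKM + 1) for each gene (horizontal axis), as a black diamond with its SE for all 4 libraries and as open symbols for fits without 1 library. The Ccnd1 symbols lie between 0.53 and 0.76, whereas those of Cdkn2a run from -1.38 to 0.99 and those of Ccnd2 from -1.46 to 0.35.

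Leaving out each library in turn kept the direction in all 4 fits for 3 of the 10 genes, Ccnd1, Cdkn1c and Cdkn2b, each positive. For Ccnd1 the sign could not turn, because both KL25 values exceeded both KL values. The same holds for every gene with groups apart, 34.1% of all genes tested. Over all genes tested 44.3% kept their direction in this way. Ccne2 stayed positive in 3 fits and missed the filter in the fit without KL25 replicate 2. For Ccnd2, Ccnd3, Ccne1, Cdkn1a, Cdkn1b and Cdkn2a at least 1 fit turned the sign. KL replicate 1 held the lowest value of 6 of the 10 genes and the highest of 1, Ccnd2.

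Other genes of G1 control, taken from 8 lists of 103 genes, gave 0 that passed limma at an adjusted p of 0.05 among the 95 tested. The groups were apart with KL25 higher for 23.2% of them and with KL25 lower for 10.5%, against 19.1% and 15.0% of all genes. Among CDKs and their activators all 8 genes tested had a positive difference, against 53.1% of all genes (median 0.30, against 0.03 over all genes). For 5 of them the groups were apart with KL25 higher, a share of 62.5%, against 19.1% of all genes. Cdk4, the kinase partner of D-type cyclins, was at 65.3 and 68.0 FPKM in KL25 and at 39.0 and 54.8 FPKM in KL (difference 0.52, limma adjusted p = 0.942). Mnat1 and Ccnh, subunits of the CDK-activating kinase, differed by 0.34 and 0.25, each with groups apart. Cdc25a, a phosphatase that activates CDK2, differed by 0.34. It was at 3.49 and 2.56 FPKM in KL25 and at 1.82 and 2.52 FPKM in KL, so its groups were only just apart. Of 18 tested E2F targets, the most of them genes of DNA replication, 17 had a positive difference (median 0.34), against 53.1% of all genes. By separated groups 9 were higher and 1 lower, shares of 50.0% and 5.56%, against 19.1% and 15.0% of all genes. At an unadjusted p of 0.05 in limma 2 of the 18 passed, both higher, against 2.16% of all genes. They were Mcm6, of the helicase that unwinds DNA, and Rrm2, a subunit of ribonucleotide reductase. Mcm6 was at 17.0 and 20.5 FPKM in KL25 and at 7.83 and 11.1 FPKM in KL (limma adjusted p = 0.942). Rrm2 was at 10.7 and 10.6 FPKM in KL25 and at 6.88 and 4.89 FPKM in KL (limma adjusted p = 0.942). Mcm2 and Mcm7, of the same helicase, differed by 0.68 and 0.70.

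Of the RB family and E2F factors 7 of 11 tested were positive (median 0.08), with 1 higher and 2 lower by separated groups. These are shares of 9.09% and 18.2%, against 19.1% and 15.0% of all genes. Rb1 was at 6.96 and 8.88 FPKM in KL25 and at 8.90 and 9.26 FPKM in KL, and the RB relative Rbl2 at 7.49 and 8.73 FPKM in KL25 and at 10.8 and 11.1 FPKM in KL. Tfdp1, the dimer partner of E2F, differed by 0.21. Of 19 tested p53 genes 10 were negative (median -0.08). The 3 with groups apart were lower, a share of 15.8% that is near the 15.0% of all genes: the kinase gene Plk2, the antiproliferative gene Btg2 and the stress gene Sesn2, with differences of -0.99, -0.70 and -0.46. Plk2 was at 29.5 and 47.1 FPKM in KL25 and at 105 and 53.5 FPKM in KL, its high value again in KL replicate 1.

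Among regulators of the INK4/ARF locus 3 of 14 were higher and 1 lower by separated groups (median -0.02). These are shares of 21.4% and 7.14%, against 19.1% and 15.0% of all genes, so the higher share is near that of all genes. Ets1, a transcription factor, was at 15.0 and 15.4 FPKM in KL25 and at 10.5 and 10.4 FPKM in KL. Eed, a core subunit of Polycomb complex PRC2, was at 18.7 and 18.5 FPKM in KL25 and at 14.1 and 12.8 FPKM in KL, and Ring1, of Polycomb complex PRC1, differed by 0.29. Kdm6b, a demethylase that removes the Polycomb histone mark, was at 12.7 and 10.8 FPKM in KL25 and at 35.5 and 17.1 FPKM in KL. Of 13 tested genes of G1/S protein turnover (median -0.01) 2 were higher and 1 lower by separated groups. These are shares of 15.4% and 7.69%, both below the 19.1% and 15.0% of all genes. Ambra1, which in mammals directs D-type cyclins to degradation, differed by -0.72 (limma adjusted p = 0.942). It was at 3.35 and 3.36 FPKM in KL25 and at 7.28 and 5.22 FPKM in KL. Skp1a, a core part of SCF ubiquitin ligases, was at 105.5 and 89.6 FPKM in KL25 and at 58.5 and 61.4 FPKM in KL, and the CUL4 adaptor Ddb1 differed by 0.17. Among 10 mitogen and FOXO genes tested (median -0.02) 2 were higher and 1 lower by separated groups. These are shares of 20.0% and 10.0%, against 19.1% and 15.0% of all genes, so the higher share is again near that of all genes. Myc was at 14.3 and 12.9 FPKM in KL25 and at 6.04 and 11.4 FPKM in KL. Foxo1, a transcription factor, differed by 0.47 and its relative Foxo3 by -0.51, both with groups apart. None of these genes passed at an adjusted p of 0.05, and the part of the higher epithelial and lower leukocyte marker levels in KL25 in their values was not tested.

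**Figure D4:**
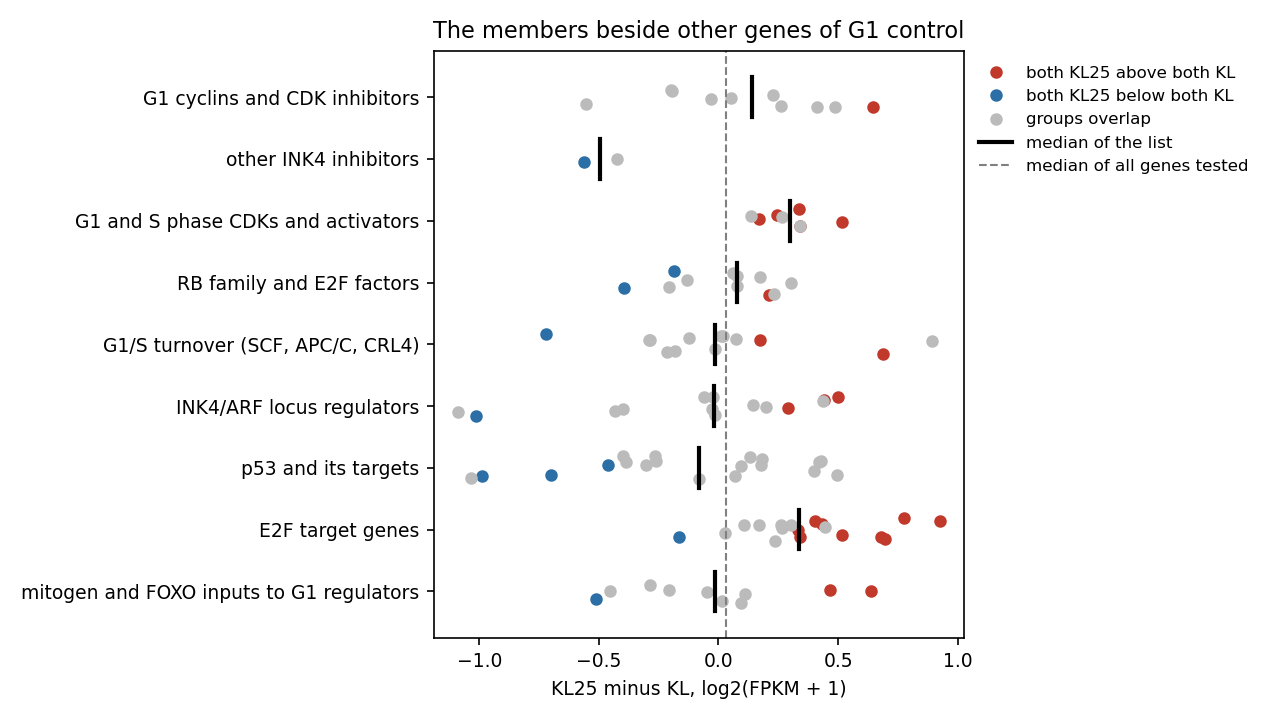
Difference between KL25 and KL in log2(FPKM + 1) for each tested gene (points) of the 10 G1 cyclins and CDK inhibitors and of 8 other lists, in red where both KL25 libraries exceed both KL libraries, in blue where both lie below, and in grey where the groups overlap. Black bars mark list medians, from -0.49 for the other INK4 inhibitors to 0.34 for E2F targets, and the dashed line the median of all genes, 0.03.

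The genes whose libraries followed Ccnd1 most closely were Mpp6, Rgs4 and Set, at distances of 0.036, 0.063 and 0.093. The distance is Euclidean, in log2(FPKM + 1) centred on each gene's mean over the 4 libraries, among 7966 genes whose mean reached 5 FPKM in KL25 or in KL. Set was at 37.8 and 42.4 FPKM in KL25 and at 23.3 and 26.5 FPKM in KL. For Cdkn2b, the member with the next lowest p, they were Vamp8, Trp53 and Pmvk, at 0.036, 0.037 and 0.060. Trp53, which encodes p53, was at 29.0 and 19.6 FPKM in KL25 and at 14.3 and 21.5 FPKM in KL. Over 4 libraries the genes named were not the only close ones: of 7966 genes compared, 27 lay within 0.2 of Ccnd1 and 75 within 0.2 of Cdkn2b.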

How the data were processed

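RNA of 4 libraries, 2 KL25 and 2 KL, was measured by strand-specific mRNA sequencing; cutadapt trimming, alignment to GRCm38 and gene counting with HTSeq came next, per the labels' protocols, with no aligner or version stated. GRCm38 and GRCm39 are both named in the submitters' processing notes. The deposited values per library were read as FPKM, a unit the header does not name; their totals were 525973 to 564975. Further columns, per the file headers, give a mean of normalized counts (a signal), the log2 fold change, the score columns (standard error and test statistic), and p-values before and after adjustment. FPKM hold no counts, so no counting interval is given. The mean normalized count summed to 10564300 per library; genes seen in 1 library gave its size factor, 100% of their means being whole multiples of a step within 0.01. Rows named as dates (25, with 0.117% of FPKM) were left out. limma 3.58.1 (R 4.3.3) was fitted with a mean-variance trend to log2(FPKM + 1) of genes whose mean reached 1 FPKM in KL25 or in KL; p-values were Benjamini-Hochberg adjusted over all such genes, and this scale shrinks the difference of low genes. Intervals are 95%. Folds are ratios of mean FPKM. Where the labels do not tie libraries to separate preparations, p-values measure the spread between these libraries. The members and all lists were chosen with earlier results of these data known. Named were all members, up to 4 genes per list with separated groups and the lowest p, and the 3 genes nearest to 2 members. Cdkn2c, Epcam, Ptprc, Cd53, Tyrobp, Cd14, Oraov1, Bysl and Ints8 were added after their values were seen. The fit was tested on simulated data. Alternatives covered the pseudocount, filter, scaling, weights, replicate number and each library. A table with only a title was not used here. One further engineered allele, carried by both groups, is not reported here.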

Additional observations from a re-analysis of the deposited data

How the results depend on the processing

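None of the 10 genes passed at an adjusted p of 0.05 under any of the settings run: pseudocounts of 0.1 and 5, no filter, median scaling, quantile normalization, array weights, the replicate block, the authors' deposited table, or leaving out a library. Of 80 values under settings that kept all libraries, 1 turned its sign: Cdkn1a was 0.0077 with quantile normalization. Of 39 values without 1 library 9 turned. The ranges were 0.53 to 0.76 for Ccnd1, -1.46 to 0.35 for Ccnd2, -0.50 to 0.10 for Ccnd3, -0.029 to 0.49 for Ccne1, 0.024 to 1.01 for Ccne2, -0.33 to 0.27 for Cdkn1a, -0.39 to 0.50 for Cdkn1b, 0.064 to 0.46 for Cdkn1c, -1.38 to 0.99 for Cdkn2a and 0.11 to 0.71 for Cdkn2b. The library that then stands alone is taken to vary as the pair does. Ccnd2 was the 1 member to reach an unadjusted p below 0.05 in such a fit, at 0.0177 in limma without KL replicate 2. The difference in share ran from -17.8 to 0.060 percentage points for Ccne1, -4.13 to 3.53 for Cdkn1a and -20.2 to 26.3 for Cdkn2a. The difference in share of Ccnd1 was 18.9 percentage points with FPKM scaled to the deposited count per exon length, an alternative chosen after seeing the data. Over all genes limma without adjustment called 269 as higher and 134 as lower. These counts ran from 107 to 1205 and from 49 to 1445 without 1 library, and the lower count was 258 without the filter. With the replicate block 373 were higher and 252 lower. Same-numbered libraries deviated from their group means with a correlation of 0.15; with 2 numbers per group this does not show that they are pairs. The cause of these shifts was not tested. Of the 10 genes Ccne2 had the lowest mean normalized count, at 30.1.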

Other observations

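The direction label of Ccnd1 differs between the deposited tables. In the authors' deposited table with the contrast of knockout against wild type, Ccnd1 is labelled Down, although its log2 fold change there is 0.64 and both KL25 libraries exceed both KL libraries. In the authors' second deposited table it is labelled Up. In 10 numeric columns (the values of the 4 libraries, the mean normalized count, the log2 fold change, its standard error, the test statistic and both p-values) all 21420 genes agree between the tables within a relative tolerance of 1e-09, and 72 labels differ, each Down in the first and Up in the second. The log2 fold changes of these 72 genes run from 0.48 to 0.99, while the genes labelled Up in the first table start at 1.00. None of the 72 has a negative log2 fold change. A reader who takes the label of the first table would give Ccnd1 the wrong direction.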
